A study of Mus musculus with 56 samples.

Results

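Ribosome footprints from mouse liver labelled 26 months were set against footprints from mouse liver labelled 20 months. The comparison took the 3 libraries whose titles name liver, 26 months and footprints and the 3 whose titles name liver, 20 months and footprints, which are 6 of the 56 libraries of a series on liver and kidney along life. Both groups came from C57BL/6 mice, an inbred laboratory strain, and the labels name no treatment, allele or sex for either. Ribosome profiling sequences the stretches of mRNA that ribosomes shield from nuclease, here after digestion of liver lysate with RNase T1 and RNase S7. The series describes 3 animals at each of these ages without tying libraries to animals, so p-values measure the spread between libraries. The other 12 liver footprint libraries, labelled 1, 3, 11 (10 in the titles) and 32 months, entered the fit only to share the estimate of that spread.

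The liver secretes most plasma proteins, and hepatocytes change this output during the acute-phase response. In that response interleukin-6 and interleukin-1 act on hepatocytes through STAT3, C/EBP and NF-kB factors, and serum amyloid A, haptoglobin, hemopexin, fibrinogen and complement are made in larger amounts. Ageing liver is also known for low-grade inflammation, more extracellular matrix and shifts in lipid and xenobiotic metabolism. A footprint count reflects the amount of a transcript and its ribosome load together, and these cannot be told apart here because RNA libraries were not used for any test. Markers of the other tissue were found in 7 of the 18 RNA libraries labelled liver and in 7 of the 10 labelled kidney.

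Total counts of the 6 libraries ran from 7985755 to 25294950. Alb, the main plasma protein gene of hepatocytes, took between 46396 and 73161 CPM, which are counts scaled to the total of the library, and Kap, a kidney tubule gene, at most 0.751 CPM. The age labels carry a doubt of their own. Ighm, the antibody heavy chain gene of B cells, which rises with age in mouse tissues, had 6.12 ± 2.00 CPM (SD over 3 libraries) in liver footprints labelled 1 month, and the 3 libraries labelled 11 months had 5.09 ± 1.34 CPM (SD). Its highest mean, 321.8 ± 422.6 CPM (SD over 3 libraries), was in those labelled 3 months. Groups are therefore named by their labels throughout. Library 2 labelled 20 months stood apart in composition. Gm42418, a locus that overlaps ribosomal RNA sequence, took 7.72% of its counts and at most 0.0379% of the counts of the other 5 libraries. Its scaling factor by the trimmed mean of M-values (TMM) was 0.822, against 0.932 to 1.080 in the other 5. Pairs of libraries labelled 20 months correlated across genes at 0.987 to 0.990, pairs labelled 26 months at 0.986 to 0.990 and pairs across the labels at 0.975 to 0.988 (Pearson's r of log2(CPM + 1) across genes, which are not independent replicates).

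None (0) of 13608 tested genes passed an adjusted p of 0.05 in edgeR's quasi-likelihood test, which is 0% of the genes tested. The smallest edgeR adjusted p was 0.144. At an unadjusted p under 0.05 there were 1270 genes (9.33% of those tested), where 680 in both directions together would be reached by chance alone. That excess depended on single libraries. It was gone without library 2 labelled 20 months (696 of 14031 tested genes). Without library 2 labelled 26 months it was nearly gone (736 of 14043). Of the 1270 genes, 586 were higher at 26 months (4.31% of those tested) and 684 lower (5.03%). DESeq2 on the same counts called 54 genes (0.397%), 39 higher and 15 lower. The edgeR fit without library 3 labelled 26 months called 32 genes (0.228% of 14020 tested), 28 higher (0.2%) and 4 lower (0.0285%), and 1118 genes (7.97%) reached an unadjusted p under 0.05. An edgeR fit of the 6 libraries alone called 33 of 12568 genes (0.263%), 25 higher (0.199%) and 8 lower (0.0637%), with 2492 (19.8%) at an unadjusted p under 0.05. Scaling by library size called 2 genes (0.0147%), and a fit without the filter on low counts called 6 of 26134 (0.023%). The values of the 3 libraries labelled 26 months all lay above the 3 labelled 20 months for 1504 genes (11.1%) and all below for 1881 genes (13.8%).

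Scaling bears on the balance between higher and lower genes. By library size alone the median log2 difference over all tested genes was 0.16, against 0.01 after TMM. The share of higher genes among those at an unadjusted p under 0.05 was 84.0% by library size and 46.1% after TMM. By library size the ranges did not overlap for 2316 genes with 26 months higher (17%) and for 485 genes with 26 months lower (3.56%). Levels given here are CPM scaled by TMM, and log2 differences are those of the edgeR fit at 26 minus 20 months with their standard errors (SE). Gene counts by list are counts at an unadjusted p under 0.05, and no gene among them passed edgeR's adjusted test in the fit of all 18 libraries. DESeq2, fitted to the same 18 libraries, did call some list members. Its adjusted p was 1.01e-05 for Saa2 and Hc, 4.18e-05 for Saa1, 0.000175 for Lcn2 and 0.000384 for Abcc3. It was 0.00131 for Hamp2, 0.0101 for Hp, 0.0107 for Hpx and 0.0385 for Apoe. The counts by list are to be read beside the shares of all tested genes, 4.31% higher and 5.03% lower. Those shares were 2.88% and 2.08% without library 2 labelled 20 months, 2.84% and 2.4% without library 2 labelled 26 months, 3.93% and 4.04% without library 3 labelled 26 months, and 7.66% and 1.46% by library size alone. Genes were taken by a rule (Hc, B3galt1, Fmn1, C8a, C9, Abcc3, Cyp2a22, Blvrb, Hamp2, Arsa and the most abundant members of lists); the other genes described were chosen after their values had been seen.

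**Figure D1:**
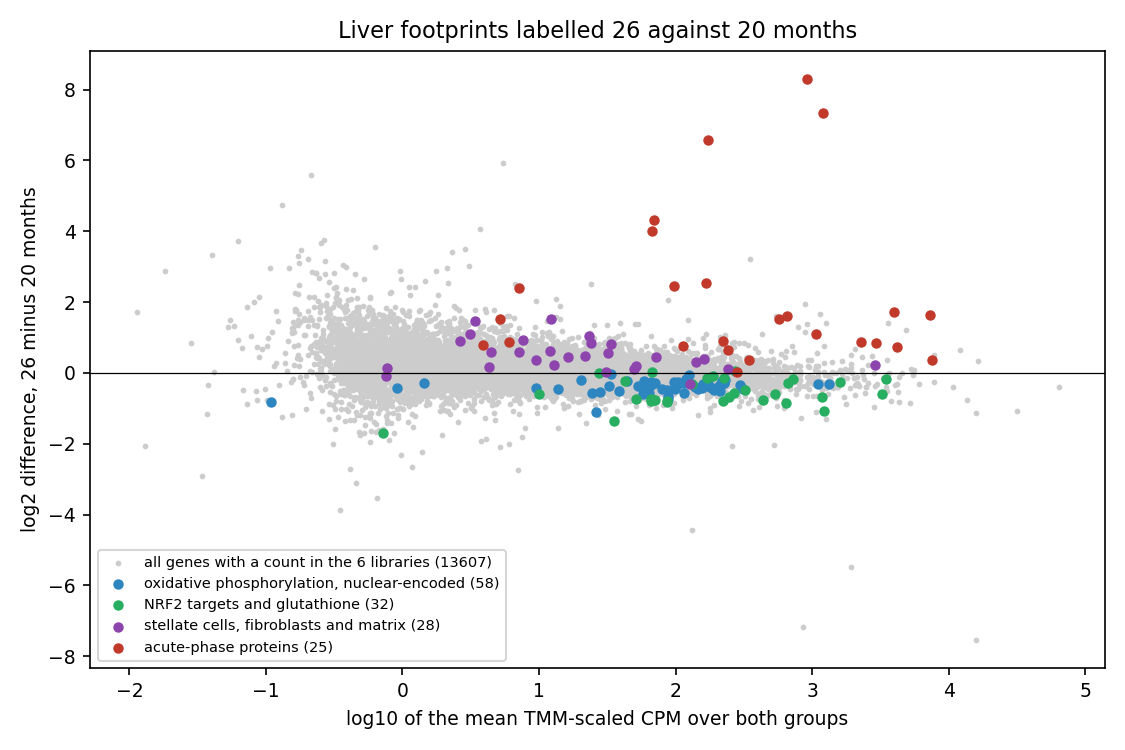
The log2 difference between liver footprints labelled 26 and 20 months (vertical axis, from the edgeR fit) is plotted against the mean level (horizontal axis, log10 of TMM-scaled CPM) for 13607 tested genes in grey, with members of 4 gene lists in colour. Acute-phase genes reach a log2 difference of 8.31 for Saa2, while genes of oxidative phosphorylation lie between -1.10 and -0.04; Gm42418 lies at -7.54.

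Acute-phase genes lay far above the libraries labelled 20 months in libraries 1 and 2 labelled 26 months and little above them in library 3. All 25 tested members of the list had a positive log2 difference, with a median of 1.51 against 0.01 for all genes. At an unadjusted p under 0.05, 17 were higher and 0 lower, beside a background of 4.31% of genes for the higher direction. Libraries 1 and 2 labelled 26 months carried most of the difference: the mean over members of log2(CPM + 1) lay 2.38 and 2.53 above the mean of the libraries labelled 20 months, and in library 3 it lay 0.46 above. Library 1 labelled 20 months, the highest of that group, lay at 0.34. Without library 3 the median was 1.92, and 7 of the 25 members passed an edgeR adjusted p of 0.05 (background 0.2% of genes), named with their values in what follows. Library 3 is the library labelled 26 months nearest to 20 months for this list, so leaving it out raises the difference by itself. Each fit without another of the 6 libraries called 0 genes. Adjusted p-values without library 3, here and below, are therefore descriptions and no separate support. Without library 2 labelled 20 months the median was 1.20, and 16 members were higher at an unadjusted p under 0.05 (all genes 2.88%).

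Saa1 and Saa2 encode serum amyloid A, carried on high-density lipoprotein in inflammation. Their promoters are shown because both genes move together here and their sequences are near copies, with 238 of 251 aligned positions identical (94.8%). The 250 bases before the annotated start are given from RefSeq (GRCm38.p6), 5′ to 3′ along the gene, for Saa1 at chr7:46742981-46743230 (minus strand), Saa2 at chr7:46751583-46751832 (plus strand), Serpina3n at chr12:104406458-104406707 (plus strand) and Fga at chr3:83025903-83026152 (plus strand). Capitals mark matches on either strand to the C/EBP (TTNNGNAAT) or STAT (TTCNNNGAA) motifs.
Saa1: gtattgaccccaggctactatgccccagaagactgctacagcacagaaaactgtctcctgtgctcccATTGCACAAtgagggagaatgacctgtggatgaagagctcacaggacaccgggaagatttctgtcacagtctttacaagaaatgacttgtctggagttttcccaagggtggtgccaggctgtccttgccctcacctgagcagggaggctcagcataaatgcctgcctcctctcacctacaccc
Saa2: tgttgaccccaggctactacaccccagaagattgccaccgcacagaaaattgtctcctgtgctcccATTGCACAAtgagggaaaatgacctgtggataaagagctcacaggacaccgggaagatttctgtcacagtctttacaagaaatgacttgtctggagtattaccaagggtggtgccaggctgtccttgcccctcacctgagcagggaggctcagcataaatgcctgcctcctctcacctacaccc
Serpina3n: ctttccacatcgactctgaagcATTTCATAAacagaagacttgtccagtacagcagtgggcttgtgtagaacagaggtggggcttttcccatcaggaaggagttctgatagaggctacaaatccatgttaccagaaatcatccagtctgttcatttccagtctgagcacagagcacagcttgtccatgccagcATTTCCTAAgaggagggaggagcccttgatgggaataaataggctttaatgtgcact
Fga: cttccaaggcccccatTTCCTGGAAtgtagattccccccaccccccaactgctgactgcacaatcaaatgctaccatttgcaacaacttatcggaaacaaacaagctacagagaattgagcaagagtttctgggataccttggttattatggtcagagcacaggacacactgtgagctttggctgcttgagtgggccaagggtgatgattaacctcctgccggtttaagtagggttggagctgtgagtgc
The C/EBP match lies 183 bases before the start in Saa1 and 184 bases before it in Saa2. Serpina3n holds C/EBP matches at 228 and 57 bases before its start, and Fga holds a STAT match at 234 bases. Of the 25 tested acute-phase members, 20 had a promoter in the table, and 7 of these held the C/EBP letters and 5 the STAT letters. Over all 32851 promoters of the same length the shares were 10.16% and 7.02%. A member counted if any of its promoters matched, while these shares are of single promoters, so counts and shares are of unlike units. The near copies Saa1 and Saa2 are both among the 7. A match is a description of letters and not a site of binding.

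Saa1 was at 24.3, 8.58 and 10.3 CPM in libraries 1, 2 and 3 labelled 20 months and at 3179, 3881 and 56.6 CPM in libraries 1, 2 and 3 labelled 26 months. All 3 libraries labelled 26 months lay above all 3 labelled 20 months, library 3 by far the least. Against the mean at 20 months, Saa1 was 220.4-fold higher in library 1, 269.0-fold in library 2 and 3.92-fold in library 3. The log2 difference was 7.35 ± 1.71 (SE; edgeR adjusted p = 0.268, and 0.0526 without library 3). Saa2 was at 7.85, 3.66 and 5.81 CPM and at 2537, 2961 and 24.5 CPM in the same order, with a log2 difference of 8.31 ± 1.92 (SE). Its groups did not overlap either, and its edgeR adjusted p was 0.268 with all libraries and 0.0499 without library 3. Reads of such near copies can be split between them by the counting, which limits what each gene's level shows by itself. Saa3, the member made by macrophages and fat cells as well as hepatocytes, was at 3.59, 1.72 and 1.136 CPM and at 8.31, 21.3 and 6.89 CPM. Its log2 difference was 2.41 ± 0.51 (SE; edgeR adjusted p = 0.241, and 0.0472 without library 3). Saa4, which is expressed constitutively, was at 205.9, 180.0 and 182.0 CPM and at 327.3, 405.3 and 156.9 CPM, and its groups overlapped.

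**Figure D2:**
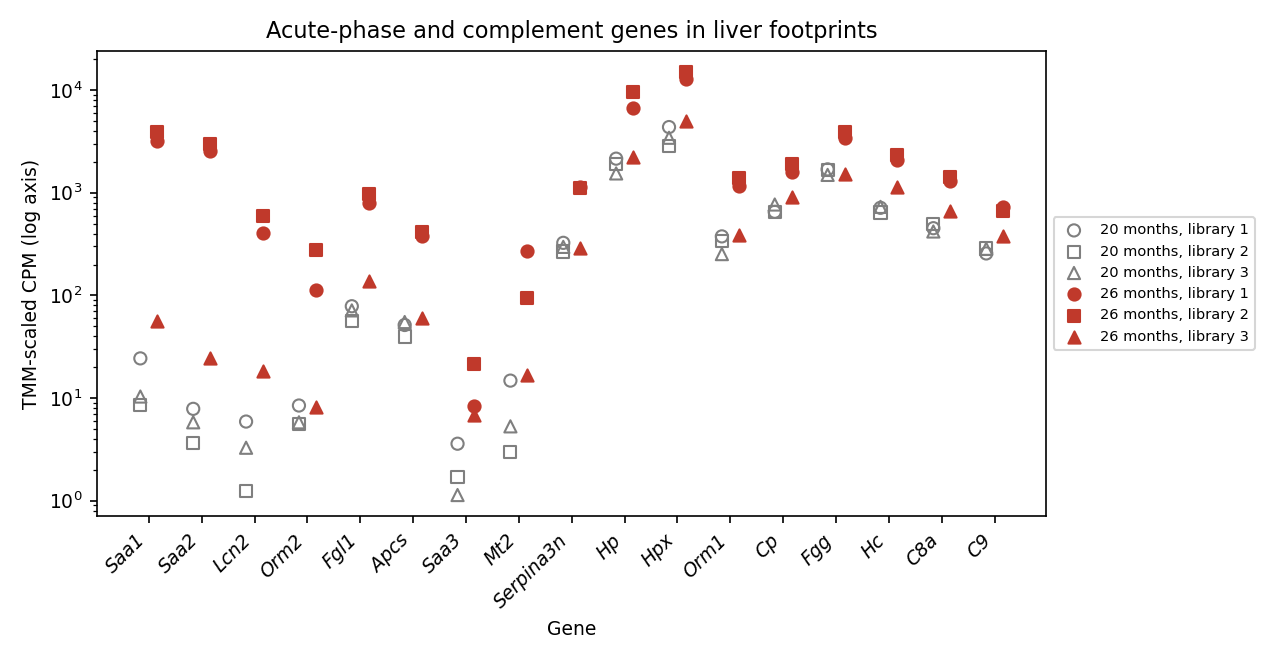
Levels (log axis, TMM-scaled CPM) of 17 acute-phase and complement genes are plotted for each of the 3 libraries labelled 20 months (open grey) and the 3 labelled 26 months (filled red), with marker shapes for library numbers. Libraries 1 and 2 labelled 26 months lie above the others for every gene drawn, as for Saa1 at 3179 and 3881 CPM, while library 3 lies nearer to the libraries labelled 20 months, as at 56.6 CPM for Saa1.

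Lcn2 encodes lipocalin 2, which withholds iron from bacteria by binding their siderophores. It was at 5.90, 1.25 and 3.28 CPM in the libraries labelled 20 months and at 403.1, 598.7 and 18.5 CPM in those labelled 26 months. Every library labelled 26 months lay above every library labelled 20 months, and the log2 difference was 6.57 ± 1.51 (SE; edgeR adjusted p = 0.268, and 0.0526 without library 3). Fgl1, a fibrinogen-like hepatokine induced by interleukin-6 and not on the list, was at 78.5, 56.1 and 71.4 CPM and at 786.4, 980.1 and 139.1 CPM. It was 11.5-fold, 14.3-fold and 2.03-fold above the mean at 20 months in libraries 1, 2 and 3, and its log2 difference was 3.21 ± 0.63 (SE; edgeR adjusted p = 0.174, and 0.0103 without library 3). Orm2, which encodes an orosomucoid, was at 8.46, 5.61 and 5.81 CPM and at 113.6, 279.0 and 8.17 CPM, so library 3 lay within the range at 20 months. Its paralog Orm1 was at 375.7, 336.6 and 252.6 CPM and at 1153, 1406 and 388.0 CPM, with library 3 just above that range.

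Proteins that bind haemoglobin, heme and metals showed the same order of libraries. Hp, haptoglobin, was at 2148, 1904 and 1542 CPM at 20 months and at 6661, 9522 and 2211 CPM at 26 months. Hpx, hemopexin, was at 4364, 2864 and 3432 CPM and at 12796, 15036 and 5042 CPM. For neither gene did the groups overlap, with log2 differences of 1.72 ± 0.43 (SE) for Hp and 1.62 ± 0.41 (SE) for Hpx. The edgeR adjusted p was 0.304 for each with all libraries, and 0.0275 for Hp and 0.0406 for Hpx without library 3. Cp, the copper oxidase ceruloplasmin, was at 652.2, 646.9 and 768.0 CPM and at 1590, 1889 and 918.7 CPM. The metallothionein gene Mt2 was at 14.8, 2.96 and 5.30 CPM and at 272.8, 93.7 and 16.9 CPM; here library 1 was the highest. Its neighbour Mt1 overlapped between the groups at 53.2, 13.8 and 22.97 CPM against 347.5, 115.5 and 33.0 CPM.

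Apcs, the pentraxin serum amyloid P, was at 51.5, 39.8 and 55.0 CPM at 20 months and at 378.3, 415.2 and 60.6 CPM at 26 months. Library 3 lay just above the group labelled 20 months, and the edgeR adjusted p of the log2 difference of 2.54 ± 0.60 (SE) went from 0.268 to 0.0153 without it. Serpina3n, a serine protease inhibitor, was at 325.2, 267.4 and 297.0 CPM and at 1126, 1120 and 289.7 CPM. Its groups overlapped through library 3, and its edgeR adjusted p was 0.345 with all libraries and 0.0153 without library 3. Crp, a minor acute-phase gene in mice, was at 274.9, 330.3 and 295.1 CPM and at 395.1, 449.1 and 311.8 CPM, again with library 3 inside the range at 20 months.

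Fibrinogen genes followed that order as well. Fgg was at 1689, 1668 and 1492 CPM and at 3445, 3882 and 1514 CPM, and it passed an edgeR adjusted p of 0.05 only without library 3 among the fits that leave out a library (0.387 with all libraries, 0.0463 without library 3). Fga was at 3482, 3322 and 2674 CPM and at 5761, 7290 and 2771 CPM, and Fgb at 2162, 2298 and 1843 CPM and at 3778, 5489 and 1978 CPM. For all 3 fibrinogen chains library 3 labelled 26 months lay within the range of the libraries labelled 20 months. The coagulation list, which holds these 3 genes, had 5 of 18 tested members higher (all genes 4.31%) and 1 lower (5.03%), with a median log2 difference of 0.19. That median was 0.32 without library 3 labelled 26 months, whose list mean lay at -0.13, and 0.13 without library 2 labelled 20 months. The lower member was Vkorc1, the vitamin K reductase, at -0.72.

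Complement genes lay higher in all 3 libraries labelled 26 months, library 3 included, with list means 0.61, 0.68 and 0.32 above the mean at 20 months. Of 21 tested members 10 were higher (all genes 4.31%) and 0 lower at an unadjusted p under 0.05. The median log2 difference was 0.53, and 10 members did not overlap upwards, beside 11.1% of all genes. Without library 3 the median was 0.67 and 4 members passed an edgeR adjusted p of 0.05 (all genes 0.2%). Without library 2 labelled 20 months the median was 0.45 and 8 were higher (all genes 2.88%). Hc, complement component C5 and the gene of smallest unadjusted p but for Olfr701, was at 713.3, 641.2 and 728.2 CPM at 20 months and at 2101, 2312 and 1144 CPM at 26 months. No values overlapped, and library 3 was 1.65-fold above the mean at 20 months. The log2 difference was 1.42 ± 0.24 (SE), with an edgeR adjusted p of 0.144 for all libraries, 0.0103 without library 3 and 0.0210 by library size alone. C8a, a chain of the membrane attack complex, was at 451.6, 500.0 and 419.4 CPM and at 1300, 1417 and 668.9 CPM (log2 difference 1.30 ± 0.25, SE). C9, which forms the pore of that complex, was at 256.3, 286.6 and 284.4 CPM and at 722.0, 667.9 and 381.0 CPM (1.10 ± 0.22, SE). For each of these genes the 3 libraries labelled 26 months lay above the 3 labelled 20 months.

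Other complement genes were placed with them in part. C4bp, which binds C4b, was at 622.1, 556.3 and 604.8 CPM and at 1003, 994.9 and 674.8 CPM, and its groups did not overlap. C3, the central component, was at 11142, 8677 and 8283 CPM and at 15955, 18961 and 9394 CPM, and library 3 lay within the range at 20 months. C8g was the member whose range at 26 months lay below that at 20 months, at a log2 difference of -0.32.

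Other genes of the rule with higher values at 26 months were B3galt1 and Fmn1. B3galt1, a galactosyltransferase, was at 18.3, 20.0 and 26.4 CPM at 20 months and at 74.2, 50.4 and 47.0 CPM at 26 months. Fmn1, an actin-nucleating formin, was at 6.76, 5.15 and 8.20 CPM and at 20.8, 23.8 and 15.7 CPM. Neither pair of groups overlapped, and the edgeR adjusted p was 0.170 for each. B3galt1 (0.0405) and Fmn1 (0.0362) passed an edgeR adjusted p of 0.05 when only the 6 libraries were fitted. Olfr701, an olfactory receptor gene below the level the rule asks for, had 5, 8 and 4 counts at 20 months and 49, 51 and 77 counts at 26 months.

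Iron and heme genes divided. Of 19 tested members 4 were higher (all genes 4.31%) and 4 lower (all genes 5.03%). The higher ones were Lcn2, Hp, Hpx and Cp, all members of the acute-phase list too. Hamp2, which encodes a hepcidin-like peptide, was at 20.1, 7.88 and 8.96 CPM at 20 months and at 1.89, 0.808 and 2.45 CPM at 26 months. All 3 libraries labelled 26 months were lower, and the log2 difference was -2.75 ± 0.61 (SE; edgeR adjusted p = 0.264). Hamp, the hepcidin gene proper, had a log2 difference of -0.70 and did not reach an unadjusted p under 0.05. Ftl1, ferritin light chain, was at 1399, 1352 and 1269 CPM and at 894.5, 655.6 and 993.7 CPM. Blvrb, a biliverdin reductase taken by the rule, was at 113.1, 125.3 and 114.0 CPM and at 77.8, 67.4 and 89.8 CPM (log2 difference -0.58 ± 0.13, SE). Both lay lower in all 3 libraries labelled 26 months.

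Genes of glutathione conjugation and other targets of NRF2, the oxidative stress regulator, lay lower at 26 months. Of 32 tested members 13 were lower and 0 higher at an unadjusted p under 0.05, beside 5.03% of all genes lower, and the median log2 difference was -0.60. The list mean lay 0.59, 0.92 and 0.21 below the mean at 20 months in libraries 1, 2 and 3. With library 2 labelled 26 months left out 4 members were lower (all genes 2.4%) at a median of -0.46. With library 2 labelled 20 months left out 7 were lower (all genes 2.08%) at -0.61. With library 3 labelled 26 months left out 18 were lower (all genes 4.04%) at -0.73. By library size alone 8 were lower (all genes 1.46%) at a median of -0.45.

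Abcc3, the export pump MRP3 of the sinusoidal membrane, was at 902.4, 820.8 and 789.2 CPM at 20 months and at 476.9, 336.7 and 566.4 CPM at 26 months. The groups did not overlap, and the log2 difference was -0.86 ± 0.18 (SE; edgeR adjusted p = 0.212, and 0.0341 without library 3). Gclc, the catalytic chain of the first enzyme of glutathione synthesis, was at 268.3, 341.0 and 307.1 CPM and at 195.1, 166.5 and 206.3 CPM. Its partner Gclm had a log2 difference of 0.04. The glutathione transferase Gsta2 was at 54.1, 52.0 and 47.7 CPM and at 10.4, 5.86 and 42.7 CPM; its edgeR adjusted p was 0.482 with all libraries and 0.0295 without library 3. Gstm1 was at 1519, 2172 and 1266 CPM and at 624.0, 453.6 and 1268 CPM, with library 3 level with the lowest library labelled 20 months. Glutathione transferases form families of similar genes, and reads shared by members can be assigned wrongly. Ephx1, an epoxide hydrolase, was at 574.5, 593.6 and 475.7 CPM and at 279.4, 245.7 and 438.4 CPM. Cat, catalase, was at 3810, 4249 and 3628 CPM and at 2673, 2179 and 2875 CPM. Hmox1 (0.01) and Txnrd1 (-0.08), also NRF2 targets, had log2 differences near 0.

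Drug-metabolizing enzymes had 9 members lower and 2 higher of 58 tested, beside 5.03% and 4.31% of all genes. Their median log2 difference was -0.31, and -0.17 by library size alone. Cyp2a22 was at 9.56, 5.30 and 10.9 CPM at 20 months and at 1.42, 0.909 and 3.26 CPM at 26 months (log2 difference -2.08 ± 0.44, SE; edgeR adjusted p = 0.241, and 0.0296 without library 3). Cyp2a5, the coumarin hydroxylase, was at 1418, 885.8 and 1244 CPM and at 600.4, 162.5 and 693.3 CPM, and Fmo1, a flavin monooxygenase, at 236.2, 181.9 and 203.3 CPM and at 140.3, 105.1 and 159.4 CPM. In all of these the groups did not overlap. Cyp2c70, which makes muricholic acids in mice, lay higher, at 345.5, 302.6 and 225.3 CPM against 518.8, 500.6 and 396.2 CPM. The most abundant members, Cyp2e1 and Cyp3a11, had log2 differences of -0.27 ± 0.33 (SE) and -0.54 ± 0.33 (SE). Cyp3a11 was at 4540, 4790 and 5816 CPM and at 3439, 2994 and 3998 CPM without overlap, and the groups of Cyp2e1 overlapped. Pericentral hepatocyte markers as a list had a median of -0.04 (0.11 by library size) and periportal ones of -0.09 (0.06 by library size). Of 20 tested periportal members 7 did not overlap downwards (all genes 13.8%) and 2 upwards (all genes 11.1%). Alb, the most abundant, was at 77541, 67224 and 73739 CPM and at 63850, 45571 and 56340 CPM. Its log2 difference was -0.40 (edgeR adjusted p = 0.673), and its groups overlapped by library size alone.

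**Figure D3:**
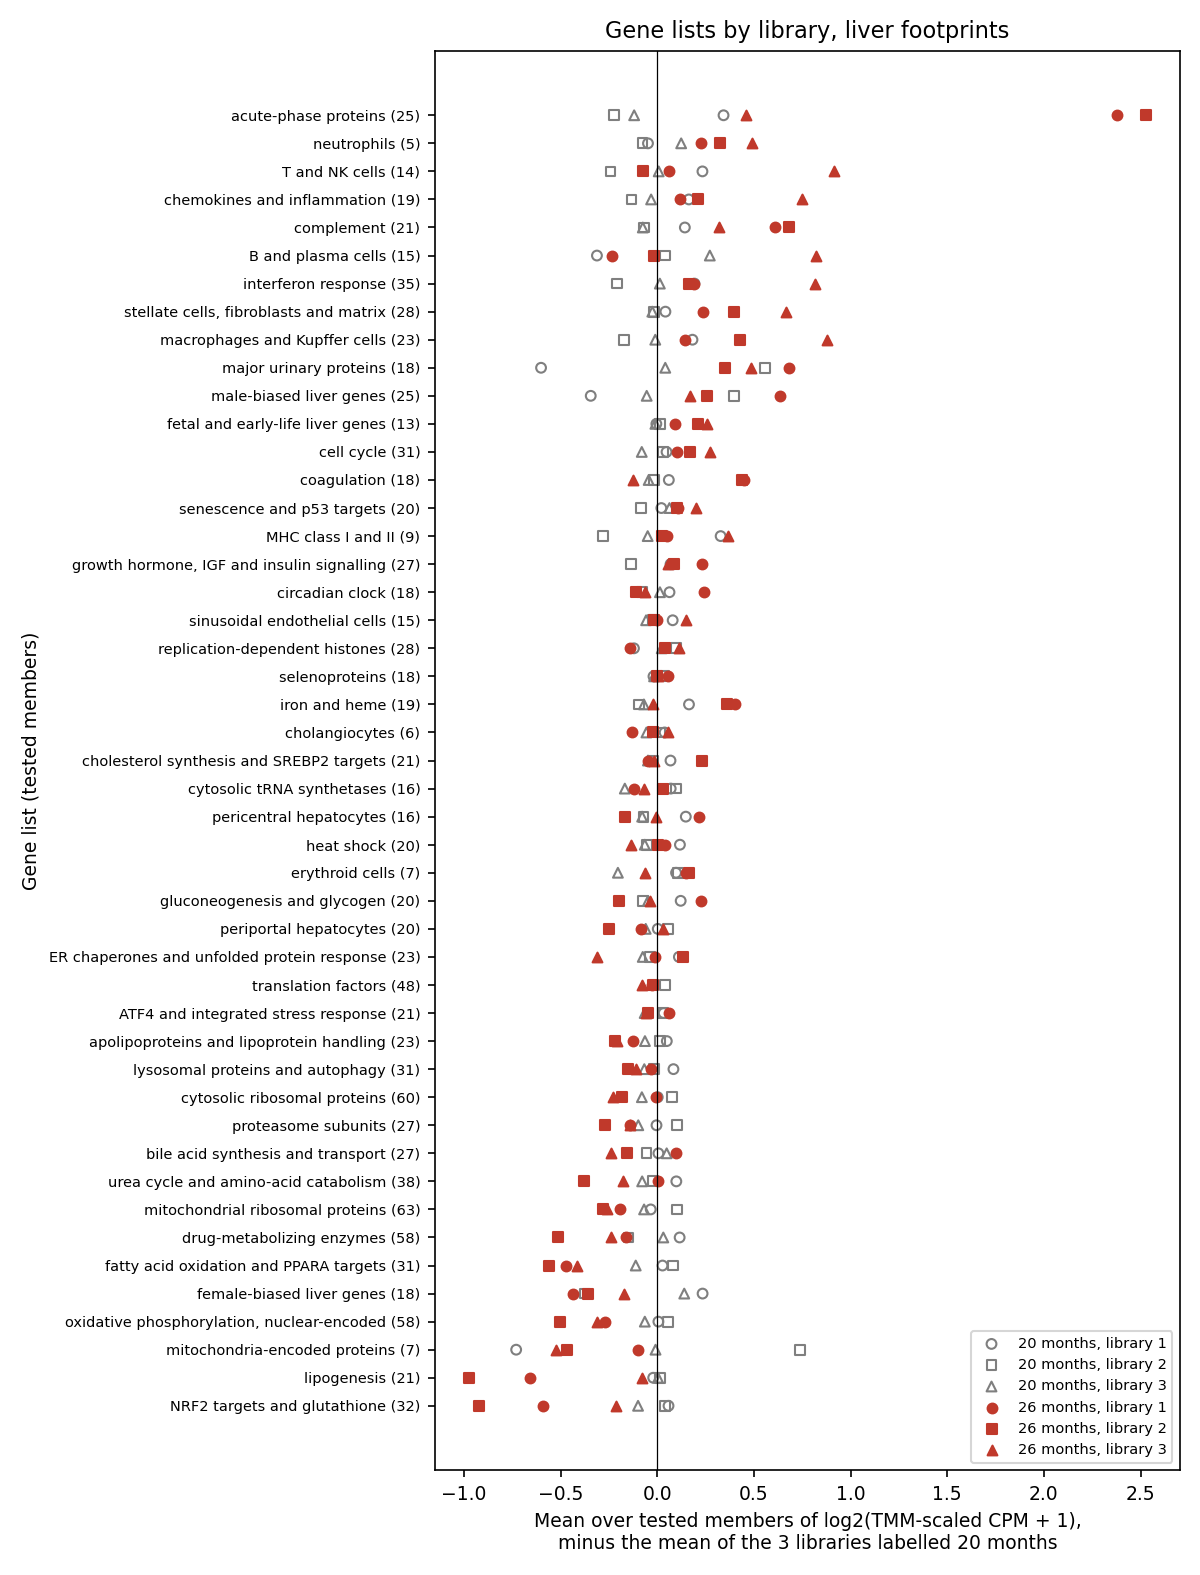
Each row is a gene list with at least 5 tested members; points give each library's mean over members of log2(TMM-scaled CPM + 1), minus the mean of the 3 libraries labelled 20 months (open grey), with libraries labelled 26 months in filled red. Acute-phase genes lie 2.38 and 2.53 up in libraries 1 and 2 and 0.46 up in library 3, interferon response genes 0.82 up in library 3, and NRF2 targets 0.59, 0.92 and 0.21 down.

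Fatty acid oxidation genes and targets of PPARA, the fasting-activated receptor, had 8 members lower (all genes 5.03%) and 0 higher of 31 tested. The median log2 difference was -0.32 (-0.17 by library size), and 21 members did not overlap downwards, beside 13.8% of all genes. All 3 libraries took part, with list means 0.47, 0.56 and 0.41 below the mean at 20 months. Cyp4a10, a fatty acid omega-hydroxylase and standard PPARA target, was at 467.3, 324.4 and 461.9 CPM at 20 months and at 65.8, 68.5 and 161.9 CPM at 26 months. Its log2 difference was -2.08 ± 0.73 (SE; edgeR adjusted p = 0.420). Cyp4a14 was at 883.6, 670.2 and 984.7 CPM and at 82.1, 195.3 and 340.9 CPM, and Acaa1b, a peroxisomal thiolase, at 1759, 1903 and 1782 CPM and at 525.0, 428.9 and 1237 CPM. Each of these 3 genes lay lower in all 3 libraries labelled 26 months. Without library 2 labelled 20 months 4 members were lower (all genes 2.08%), at a median of -0.30. Ppara itself had a log2 difference of -0.13.

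Lipogenic genes lay lower in libraries 1 and 2 but hardly in library 3. None (0) of 21 tested members had a positive log2 difference, 4 were lower (all genes 5.03%), and the median was -0.49 (-0.32 by library size). The list means lay 0.66, 0.97 and 0.08 below the mean at 20 months. Without library 3 the median was -0.78 and 12 members were lower (all genes 4.04%). Without library 2 labelled 26 months the median was -0.28 and 2 were lower (all genes 2.4%). Vldlr, a lipoprotein receptor, was at 7.43, 5.15 and 8.08 CPM and at 2.84, 1.41 and 3.63 CPM. Elovl5, a fatty acid elongase, was at 716.4, 867.7 and 780.5 CPM and at 356.2, 341.2 and 681.4 CPM. Plin2, a lipid droplet coat protein, was at 564.7, 588.9 and 359.6 CPM and at 276.0, 263.2 and 372.1 CPM, with library 3 inside the range at 20 months. Genes of cholesterol synthesis had a median of -0.02 (0.14 by library size).

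Apolipoproteins and lipoprotein handling had 5 members lower (all genes 5.03%) and 1 higher (all genes 4.31%) of 23 tested. Apoe, the remnant ligand, was at 15755, 21907 and 13990 CPM at 20 months and at 10738, 9008 and 10858 CPM at 26 months. Apoa2, of high-density lipoprotein, was at 5502, 6270 and 4742 CPM and at 3419, 2608 and 3371 CPM. Pltp, which moves phospholipid between lipoproteins, was at 275.6, 240.8 and 215.7 CPM and at 80.2, 60.7 and 196.6 CPM (log2 difference -1.11 ± 0.38, SE; edgeR adjusted p = 0.402, and 0.0406 without library 3). Apoa4 lay higher in all 3 libraries, at 119.2, 140.9 and 103.1 CPM against 197.0, 220.2 and 208.7 CPM. The groups did not overlap for these 4 genes. Arsa, the lysosomal arylsulfatase A that the rule took as a lower gene, was at 133.8, 139.6 and 129.7 CPM and at 80.3, 83.1 and 100.4 CPM.

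Nuclear genes of oxidative phosphorylation, the respiratory chain and ATP synthase, had small negative differences. None (0) of 58 tested members had a positive log2 difference, and the median was -0.37. At an unadjusted p under 0.05, 19 were lower (all genes 5.03%). For 42 of the 58 the 3 libraries labelled 26 months lay below the 3 labelled 20 months, beside 13.8% of all genes. The list means lay 0.27, 0.50 and 0.31 below the mean at 20 months. Ndufa13, a complex I subunit, was at 96.4, 137.0 and 90.4 CPM and at 71.9, 62.7 and 71.6 CPM, with a log2 difference of -0.65 ± 0.18 (SE; edgeR adjusted p = 0.345). Library 2 labelled 20 months was the highest for that gene and for the list mean, at 0.06. Without it 8 members were lower (all genes 2.08%) and the median was -0.32. By library size alone 10 were lower (all genes 1.46%) and the median was -0.22.

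Mitochondrial ribosomal proteins had 17 of 63 tested members lower (all genes 5.03%) and 0 higher, at a median of -0.25, with 32 not overlapping downwards (all genes 13.8%). Without library 2 labelled 20 months 2 were lower (all genes 2.08%) and the median was -0.22, and by library size 3 were lower (all genes 1.46%) at -0.10. The 7 tested genes encoded in the mitochondrial genome ran apart in the libraries labelled 20 months, with list means of -0.73, 0.74 and -0.01, and their median of -0.41 was -0.02 without library 2. Cytosolic ribosomal proteins had 7 of 60 lower (all genes 5.03%) at a median of -0.12, which by library size was 0.01. Proteasome subunits had 4 of 27 lower (all genes 5.03%) at -0.18 (-0.03 by library size).

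Matrix and stellate cell genes lay higher in all 3 libraries labelled 26 months, and library 3 was the highest. Of 28 tested members 9 were higher (all genes 4.31%) and 0 lower, 15 did not overlap upwards (all genes 11.1%), and the median log2 difference was 0.45. The list means lay 0.24, 0.40 and 0.67 above the mean at 20 months. The summed level of the 28 genes ran from 3314 to 4202 CPM at 20 months and from 3846 to 5027 CPM at 26 months, so the sums overlapped. More cells of a type and more RNA per cell cannot be told apart in bulk liver. Without library 3 the median was 0.30 with 4 higher (all genes 3.93%) and 1 lower (all genes 4.04%). Without library 2 labelled 20 months it was 0.44 with 6 higher (all genes 2.88%).

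Col1a1, a chain of the type I collagen of scars, was at 7.97, 4.83 and 6.18 CPM at 20 months and at 12.2, 19.6 and 23.1 CPM at 26 months. Library 3 was the highest of the 6, and the log2 difference was 1.52 ± 0.49 (SE; edgeR adjusted p = 0.387, and 0.582 without library 3). Its partner Col1a2 was at 18.99, 14.4 and 18.6 CPM and at 24.7, 27.5 and 40.0 CPM, and Col3a1, of type III collagen, at 26.8, 21.4 and 24.9 CPM and at 31.8, 42.7 and 54.6 CPM. Col6a3, of the pericellular type VI collagen, was at 16.2, 16.1 and 13.6 CPM and at 26.1, 29.3 and 39.2 CPM. It was the member of this list that passed an edgeR adjusted p of 0.05 when only the 6 libraries were fitted (0.0405). Mmp2, a gelatinase, was at 1.70, 2.65 and 1.64 CPM and at 3.79, 4.24 and 4.80 CPM. Lrat, which stores vitamin A in stellate cells, was at 20.0, 27.5 and 30.9 CPM and at 31.7, 38.9 and 43.8 CPM. All of these genes lay higher in each library labelled 26 months than in any labelled 20 months. Basement membrane collagen Col4a2 (0.02) and Fn1 (0.23), the most abundant member, had smaller log2 differences.

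**Figure D4:**
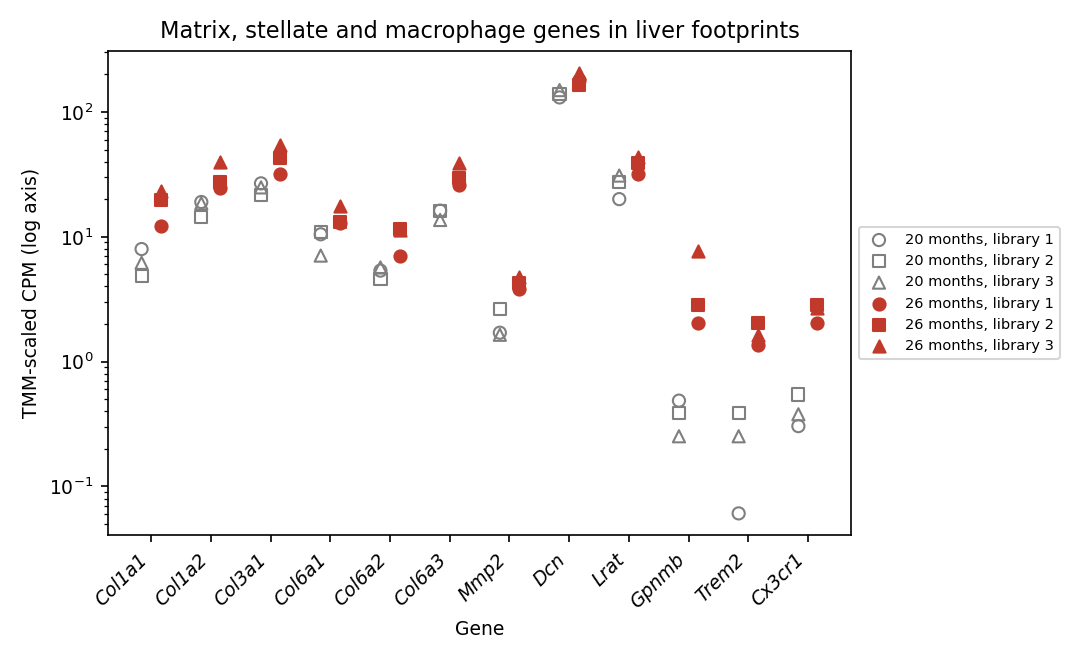
Levels (log axis, TMM-scaled CPM) of 12 matrix, stellate cell and macrophage genes are plotted for each library labelled 20 months (open grey) and 26 months (filled red), with marker shapes for library numbers. Each gene has its 3 red points above its 3 grey points, as for Col1a1 with at least 12.2 CPM at 26 months and at most 7.97 CPM at 20 months.

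Macrophage genes had 3 of 23 tested members higher (all genes 4.31%), 8 not overlapping upwards (all genes 11.1%) and a median log2 difference of 0.42, which was 0.18 without library 3. Their list means lay 0.14, 0.43 and 0.88 above the mean at 20 months, and library 1 labelled 20 months lay at 0.18. Gpnmb, a glycoprotein of lipid-laden macrophages, had 8, 5 and 2 counts at 20 months and 30, 28 and 211 counts at 26 months. Trem2, a lipid receptor of the same cells, had 1, 5 and 2 counts and 20, 20 and 45 counts. Cx3cr1, the fractalkine receptor of monocyte-derived cells and on none of the lists, had 5, 7 and 3 counts and 30, 28 and 73 counts. In CPM the groups did not overlap for any of these genes, and their log2 differences were 3.42 ± 0.76, 2.87 ± 0.84 and 2.60 ± 0.60 (SE). Their edgeR adjusted p-values were 0.264, 0.387 and 0.264, and Cx3cr1 passed with only the 6 libraries fitted (0.0362). The most abundant members, Cd5l and Clec4f, which mark resident Kupffer cells, had log2 differences of 0.56 ± 0.46 (SE) and 0.30 ± 0.52 (SE), and their groups overlapped.

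As lists, lymphocyte and interferon genes were high in library 3 labelled 26 months. The list mean of T and NK cell genes lay 0.06, -0.07 and 0.91 from the mean at 20 months in libraries 1, 2 and 3, and that of interferon response genes 0.19, 0.16 and 0.82. Of 35 interferon response genes 34 had a positive log2 difference, but 1 was higher at an unadjusted p under 0.05 (all genes 4.31%). Their median of 0.47 was 0.17 without library 3. For T and NK cell genes the median of 0.76 became -0.29 without that library. Ccl5, a chemokine of cytotoxic lymphocytes, was at 1.40, 1.01 and 0.631 CPM at 20 months and at 1.28, 0.808 and 9.23 CPM at 26 months. Zap70, the most abundant T and NK cell member, went the other way. It was at 15.6, 8.97 and 16.5 CPM and at 22.5, 19.1 and 14.0 CPM, with library 3 the lowest labelled 26 months. Ighm was at 38.2, 122.7 and 116.6 CPM and at 35.5, 68.9 and 291.8 CPM, and its groups overlapped. Summed markers of B and plasma cells ran from 59.3 to 197.0 CPM at 20 months and from 70.1 to 464.7 CPM at 26 months, and those of neutrophils from 2.11 to 3.03 CPM and from 3.99 to 5.64 CPM. The 5 tested neutrophil genes had a median log2 difference of 1.27, which ran from 0.70 to 1.77 with a library left out. They lay near the floor: up to 2 of the 5 had no counts in a library, and S100a8 had 2, 1 and 2 counts at 20 months. At a minimum count of 50 no member was tested. Library 3 had the highest list means for lymphocyte, macrophage (0.88) and matrix (0.67) genes and the lowest for acute-phase genes (0.46) among the libraries labelled 26 months. The part of these cells in the acute-phase and matrix differences was not tested.

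Sex-biased liver genes, which growth hormone pulses and androgens set, varied within the groups. Male-biased genes had 3 of 25 members higher (all genes 4.31%) at a median of 0.37, which was 0.16 without library 1 and 0.13 without library 3 labelled 20 months. Female-biased genes had 4 of 18 lower (all genes 5.03%) and 1 higher (all genes 4.31%) at a median of -0.34. That median was -0.04 without library 1 labelled 20 months and 0.01 with only the 6 libraries fitted. Their most abundant members, Cyp4a14 and Cyp4a10, are the genes described above with fatty acid oxidation, and Cyp4a10 is 1 of the 4 lower. Library means at 20 months already ran from -0.34 to 0.40 for the male-biased list. Selenbp2 was at 22.8, 46.3 and 33.4 CPM and at 249.4, 86.4 and 88.3 CPM, and Cyp7b1, an oxysterol hydroxylase, at 121.1, 161.1 and 135.0 CPM and at 372.0, 313.9 and 162.6 CPM. Both lay higher at 26 months without overlap. Major urinary proteins, a cluster of near-identical genes whose reads cannot be assigned with certainty, had 0 of 18 members at an unadjusted p under 0.05. Lists of heat shock, circadian clock, integrated stress response, unfolded protein response, selenoprotein, tRNA synthetase and histone genes had medians between -0.11 and 0.07.

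Set among all 6 age labels, several of these genes were at an extreme in the libraries labelled 20 months as much as in those labelled 26 months. Fgl1 was lowest at 20 months, at 68.7 ± 11.5 CPM (mean ± SD, n = 3 libraries for each label), and highest at 26 months, at 635.2 ± 440.4 CPM. Its other means were 177.3 ± 123.6 CPM at 1 month, 444.2 ± 248.9 CPM at 3 months, 181.7 ± 5.13 CPM at 11 months and 159.6 ± 13.6 CPM at 32 months. Hc was likewise lowest at 20 months (694.2 ± 46.6 CPM) and highest at 26 months (1852 ± 622 CPM), with 1329 ± 167 CPM at 32 months. Abcc3 was highest at 20 months (837.5 ± 58.4 CPM) and lowest at 26 months (460.0 ± 115.8 CPM), and all other labels had means between 529.4 and 597.1 CPM. Col1a1 was lowest at 20 months (6.33 ± 1.57 CPM) and highest at 11 months (86.4 ± 41.0 CPM), while 26 months (18.3 ± 5.57 CPM) lay near 1 month (16.9 ± 7.48 CPM). Cyp4a10 was lowest at 26 months (98.7 ± 54.7 CPM) and highest at 11 months (694.3 ± 306.4 CPM). It is on the female-biased list, whose means in the libraries labelled 11 months lay 2.26, 1.68 and 1.46 above the mean at 20 months. The male-biased list lay at -1.38, -0.65 and -0.58 there. The labels name no sex, and the part of sex in the levels at 11 months was not tested. Saa1 reached high levels in single libraries of other labels too, at 841.0 CPM in library 2 labelled 1 month and at 391.9 and 415.7 CPM in libraries 1 and 2 labelled 3 months.

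**Figure D5:**
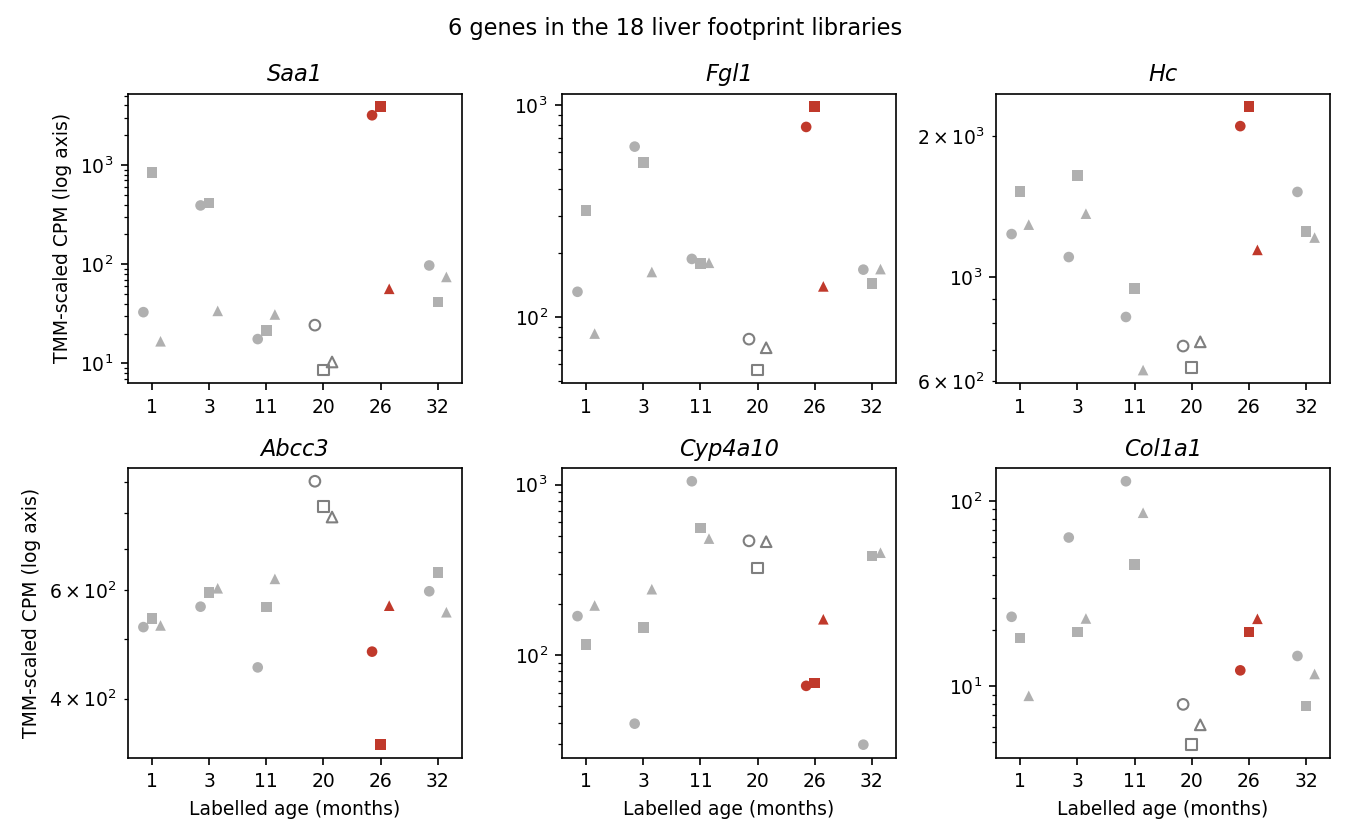
Levels (log axis, TMM-scaled CPM) of Saa1, Fgl1, Hc, Abcc3, Cyp4a10 and Col1a1 are plotted for the 18 liver footprint libraries by labelled age (horizontal axis, months), with 26 months in red, 20 months open and other labels in light grey. The libraries labelled 20 months are the lowest 3 for Fgl1 (at most 78.5 CPM) and the highest 3 for Abcc3 (at least 789.2 CPM).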

How the data were processed

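Footprint reads were turned by the authors into counts of reads per gene, deposited with no normalization as 1 table per library and 1 joint table whose 56 columns were identical to them. Per the submitters' processing notes, Cutadapt 1.14 and STAR 2.5.3 were used with build mm10; which program counted the reads, and on which annotation, is not given in the sources used here. Of 50222 gene identifiers 45359 had a symbol; those without are counted but not named, and some items are not reported here.

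Groups followed the tissue, assay and age labels. The 18 liver footprint libraries passed through filterByExpr with a minimum count of 10 and TMM scaling; the robust two-sided quasi-likelihood F test came from edgeR 4.0.16 in R 4.3.3, with Benjamini-Hochberg adjustment over all 13608 genes at 0.05. SE was derived as the size of the log2 difference over the square root of F. An exact permutation test of 3 against 3 libraries cannot give a p under 0.1. Libraries of a group differed by more than sampling noise in every pair. The rule for named genes takes called genes or, with none called, the 5 of smallest unadjusted p in each direction with ranges that do not overlap and a mean of at least 5 CPM, without predicted models, and the 2 most abundant members of each list. The members and the 49 gene lists were chosen with earlier results of these data known, so list counts are descriptions and were given no test. Alternatives were other scalings, filters, sets of libraries, a replicate block, DESeq2 1.42.0 and each library left out. The fits without Gm42418 and with RefSeq protein-coding genes only were added after seeing the data. Kidney and RNA libraries were not tested. Promoters came from RefSeq (GRCm38.p6).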

Additional observations from a re-analysis of the deposited data

Results flagged for a closer look

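Saa1 was also high in RNA libraries outside the comparison. It was at 4187 CPM in RNA library 1 labelled kidney at 20 months and at 3062 CPM in RNA library 4 labelled kidney at 3 months, against 26.5 to 657.2 CPM in 3 RNA libraries with the label liver, 20 months. Both libraries carried the liver marker Alb, at 88372 and 105433 CPM, and at most 13.3 CPM of the kidney marker Kap. Of the 6 RNA libraries labelled liver at 20 or 26 months, 2 had more Kap than Alb. Whether these RNA libraries share an animal with footprint libraries 1 and 2 labelled 26 months was not tested.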

How the results depend on the processing

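The count of 0 called genes held under RLE, upper-quartile and non-robust fits, TMM without the 10 most abundant genes, a minimum count of 50, no libraries labelled 3 months, no Gm42418 and RefSeq protein-coding genes only. The fit with a replicate block also called 0 genes. Same-numbered libraries had correlations of deviations across genes of 0.0267, 0.0574 and -0.156. With 3 libraries in a group these values cannot show whether same-numbered libraries share more than a number. Library size alone called 2 genes (2 higher, 0 lower), DESeq2 54 (39 higher, 15 lower), no filter 6 (6 higher, 0 lower) and the 6 libraries alone 33 (25 higher, 8 lower). Leaving out each library in turn called between 0 and 32 genes (0 to 28 higher, 0 to 4 lower), with all 32 coming from the fit without library 3 labelled 26 months; 3 genes were shared by that set and the 33. Called list members numbered 2, 19, 3 and 3 in these 4 fits and 0 to 15 with a library left out. At an unadjusted p under 0.05 there were 2492 genes with the 6 libraries alone and 696 to 1552 with a library left out, the lowest without library 2 labelled 20 months. The causes were not tested. Log2 differences given with an SE in the report kept their sign under these alternatives; Cyp2e1, Cyp3a11, Cd5l, Clec4f and the genes under other observations were not followed. DESeq2 gave 11 genes no adjusted p. Genes at 1 to 8 counts, such as Trem2 at 20 months, are limited by depth.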

Other observations

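Some further genes that passed an edgeR adjusted p of 0.05 with only the 6 libraries fitted, a test resting on 4 residual degrees of freedom, were these. They were chosen after their values had been seen, and none passed with all 18 libraries. Ethe1, a mitochondrial sulfur dioxygenase, was at 72.2, 81.3 and 72.4 CPM in libraries 1, 2 and 3 labelled 20 months and at 31.4, 22.9 and 37.7 CPM in those labelled 26 months (log2 difference -1.26 ± 0.16, SE, in that fit). Tymp, thymidine phosphorylase, was at 27.9, 36.6 and 32.4 CPM and at 11.9, 10.3 and 14.0 CPM (-1.38 ± 0.15, SE, in that fit). Coq8a, a kinase-like protein of coenzyme Q synthesis, was at 368.6, 413.8 and 364.9 CPM and at 212.8, 155.3 and 227.6 CPM. Each of these lay lower in all 3 libraries labelled 26 months.

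Vim, vimentin of mesenchymal cells, lay higher, at 19.8, 19.4 and 21.0 CPM against 32.9, 32.5 and 40.8 CPM. Gpx3, the secreted glutathione peroxidase, was at 5.17, 6.63 and 6.31 CPM and at 11.9, 14.4 and 11.6 CPM, and Noct, a circadian phosphatase, at 64.8, 69.5 and 59.4 CPM and at 138.2, 107.3 and 120.7 CPM. The groups did not overlap for any of these 3 genes.

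DESeq2 also called Slc13a5, the citrate transporter of the hepatocyte membrane, and Prtn3, a serine protease of myeloid granules. Slc13a5 had 7, 5 and 3 counts at 20 months and 64, 136 and 82 counts at 26 months. Prtn3 had 3, 1 and 2 counts and 168, 198 and 18 counts, so its high libraries were libraries 1 and 2, as for the acute-phase genes. In library 2 labelled 20 months, besides Gm42418, Lars2 was at 11192 CPM and Gm15564 at 5069 CPM, against at most 209.2 and 31.7 CPM in the other 5 libraries.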
